A study of Mus musculus with 27 samples.

Results

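Expression of 8 hormone receptor, ligand and hormone response genes was followed through 9 time points of osteoblast differentiation. The genes were listed by name and are 8 of the 37991 genes quantified. They were Pth1r, the shared receptor of parathyroid hormone (PTH) and PTH-related protein (PTHrP), Pthlh, which encodes PTHrP, Vdr, the vitamin D receptor, Cyp24a1, the hydroxylase that breaks down active vitamin D, Nr3c1, the glucocorticoid receptor, Fkbp5, a co-chaperone that glucocorticoids induce, Esr1, oestrogen receptor alpha, and Ghr, the growth hormone receptor. Every one of the 8 had at least 1 count, and 7 passed the filter on low counts, Cyp24a1 being the exception.

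The profiles came from calvarial cells of neonatal C57BL/6J mice, 5 to 9 days of age, that carried cyan fluorescent protein (CFP) under the Col3.6 fragment of the type I collagen promoter. Cells were grown for 4 days, sorted for CFP and then cultured in medium with ascorbic acid, β-glycerol phosphate and serum, and RNA was taken every other day from day 2 to day 18 after differentiation began. The labels list no added hormone, all days shared this medium, and time was the only labelled factor. Each day had 3 profiles, 27 in all, but the 3 profiles of a day carried 1 barcode read in 3 sequencing lanes, and their counts differed by no more than sampling noise (chi-square per degree of freedom from 0.999 to 1.02), so they were counted as 1 library, although the paper describes triplicate samples.

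Type I collagen promoters are active in several cells of mesenchymal origin, and the sort therefore selects collagen-producing cells rather than a single stage of the osteoblast. The number of animals behind a culture is not given in the sources used here. A day held between 22470195 and 62009158 counts (median 43146792). With 1 library a day, p-values measure the scatter of days around a curve in time, and day cannot be told apart from any batch that changed with it.

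These genes belong to endocrine systems that act on bone. PTH and PTHrP signal through a receptor on the surface of osteoblast lineage cells that raises cyclic AMP. Vitamin D, glucocorticoids and oestrogen act through nuclear receptors that bind DNA, whereas growth hormone acts at the surface through JAK2 and STAT5 and induces insulin-like growth factor 1.

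Over the time course Esr1, Ghr and Nr3c1 rose, Vdr and Fkbp5 fell, Pth1r dipped and returned, Pthlh stayed near the limit of detection and Cyp24a1 was all but undetected. A straight line in day, fitted by edgeR's quasi-likelihood test, called 5 of the 7 genes tested at an adjusted p under 0.05, of which 3 rose and 2 fell. Across all 15659 genes tested the line called 54.3%, with 28.3% rising and 26.1% falling, so a call alone is common in this series. The counts of each gene list below are to be read beside these shares. A natural spline in day, which allows a curve, called 6 of the 7 genes and 59.1% of all genes tested. Levels are given below as CPM, the counts of a day per 1000000 after upper-quartile scaling, and 95% Wilson intervals cover counting error only. Changes in log2 units below are those of the fitted line from day 2 to day 18. They can differ from the observed first and last values printed with them.

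**Figure D1:**
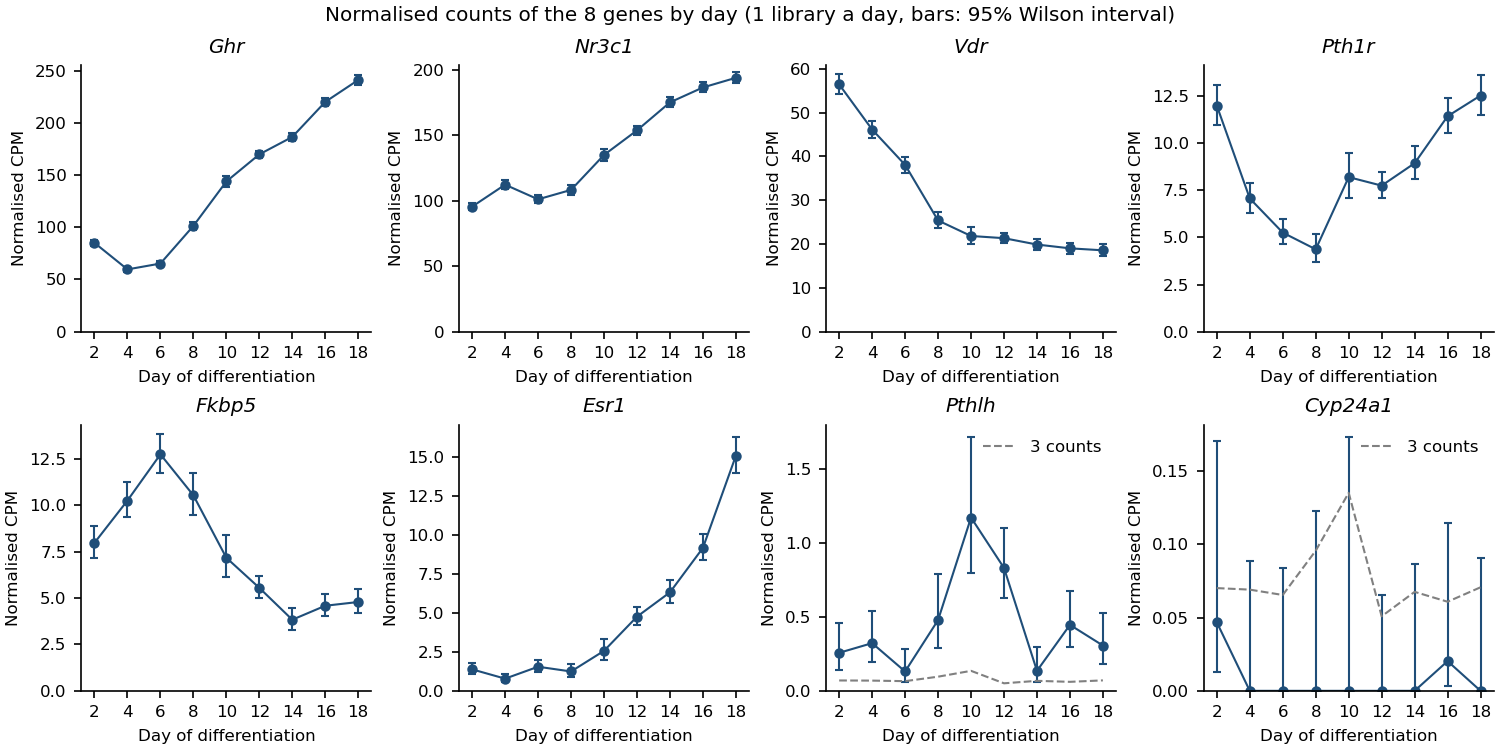
Normalised CPM (vertical axes, each from 0) of the 8 genes against day of differentiation, 1 library a day; bars are 95% Wilson intervals on the counts and dashed lines mark the level of 3 counts. Ghr, Nr3c1 and Esr1 end at 241, 194 and 15.1 CPM, their highest levels, Vdr is highest on day 2 at 56.4 CPM, and Pth1r is lowest on day 8 at 4.37 CPM.

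The bulk libraries hold RNA of a whole culture, in which fewer cells of a type and less RNA per cell cannot be told apart. Some markers of osteoblasts were present from the start. Col1a1 stood at 1526 TPM (RSEM's length-corrected transcript abundance) on day 2 and at 4263 TPM on day 18. Runx2, the lineage's transcription factor, stood at 46.4 and 62.0 TPM. Others were low on day 2, with 5 counts of Bglap, 30 of Ibsp, 4 of Dmp1 and 38 of Phex. Sp7 went from 32.3 TPM on day 2 to 2.77 on day 8 and 10.6 on day 18. Alpl went from 9.13 TPM on day 2 to 0.467 on day 6 and 17.6 on day 18. Of 10 osteoblast markers 7 rose and none fell by the line, with Sp7, Alpl and Spp1 not called. The summed level of the 10, most of it Col1a1 and Col1a2, went from 3001 to 5280 TPM on days 2 to 6 to 7644 to 9330 TPM on days 14 to 18. Markers of other cells moved as well. Of 7 monocyte and macrophage markers 6 rose (24.1 to 61.7 TPM early, 522 to 2014 TPM late), and so did 5 of 5 adipocyte markers (3.21 to 7.44 TPM early, 188 to 407 TPM late). Of 5 osteoclast markers tested 3 rose (38.1 to 86.1 TPM early, 207 to 217 TPM late over 7 genes), with Calcr and Dcstamp at 0 counts. Most of the macrophage sum was Lyz2 (19.9 TPM on day 2, 1855 on day 18) and most of the osteoclast sum Ctsk (36.5 and 193 TPM). All 4 smooth muscle and myofibroblast markers fell (3031 to 6182 TPM early, 987 to 1131 TPM late), as did all 5 proliferation markers (345 to 405 TPM early, 126 to 144 TPM late). Of 5 chondrocyte markers tested 3 rose and 1 fell (110 to 130 TPM early, 161 to 186 TPM late), and of 3 endothelial markers tested 2 rose and 1 fell (3.24 to 3.95 TPM early, 8.84 to 12.0 TPM late). The part of these lists in the results on the hormone genes was not tested.

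**Figure D2:**
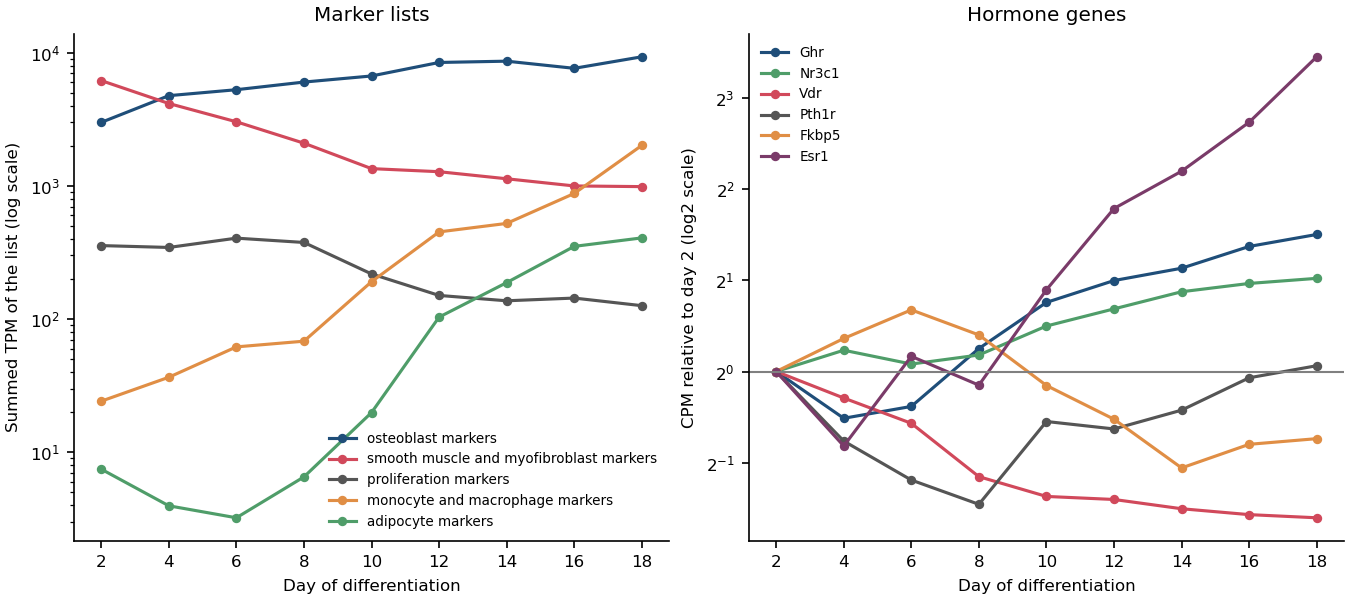
Left, summed TPM of 5 marker lists (log axis) by day; right, CPM of 6 hormone genes relative to day 2 (log2 axis), 1 library a day. The macrophage list, most of it Lyz2, reaches 2014 TPM and the adipocyte list 407 TPM on day 18, while the smooth muscle list goes from 6182 to 987 TPM. Esr1 rises most among the 6 genes drawn.

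Pth1r lies on chromosome 9 (NCBIM37 110624592 to 110649649, minus strand). Its level was 12.0 CPM at day 2, 7.07 at day 4, 5.26 at day 6, 4.37 at day 8, 8.21 at day 10, 7.75 at day 12, 8.94 at day 14, 11.4 at day 16 and 12.5 at day 18. The receptor thus fell over the first 4 libraries and was back at its starting level by the end, the Wilson intervals of day 2 (11.0 to 13.1 CPM) and day 18 (11.5 to 13.7 CPM) overlapping. The step from day 8 to day 10 was a ratio of 1.88 (exact counting interval 1.50 to 2.36). The line in day did not pass the threshold (log2 change from day 2 to day 18 of 0.48, SE 0.41, adjusted p = 0.341), whereas the spline did (adjusted p = 0.00101). Without day 2 the line gave 1.30 with an adjusted p of 0.00983, so the call on a straight trend rests on that library. The 3 genes whose pattern was most like it, by Pearson r over the 9 days on log2 CPM among 9811 genes, were Grk4 (r = 0.965), a kinase that phosphorylates G protein-coupled receptors, Cyp26b1 (0.956), which breaks down retinoic acid, and Prkar2b (0.946), a regulatory subunit of the cyclic AMP-dependent kinase. These are descriptions over 9 points that share their libraries, as for the other genes below.

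Pthlh, on chromosome 6 (147200623 to 147212689, minus strand), was at the edge of detection. It had 11 counts at day 2, 14 at day 4, 6 at day 6, 15 at day 8, 26 at day 10, 49 at day 12, 6 at day 14, 22 at day 16 and 13 at day 18, or 162 in all. The highest level was 1.17 CPM on day 10 (0.800 to 1.72) and the lowest 0.131 CPM on day 6 (0.0600 to 0.286), and these intervals did not overlap. A drop from day 12 to day 14 by a ratio of 0.163 (0.0569 to 0.380) lay outside counting error. Neither the line (log2 change 0.55, SE 1.17, adjusted p = 0.714) nor the spline (adjusted p = 0.386) passed the threshold in edgeR, and a change of 1 log2 unit lies within 1 SE of this line.

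Among the other ligands and receptors of this system, Pth had 0 counts on every day and Pth2r, a second receptor of the family, 21 counts in all. Of the 32 genes tested in the PTH and cyclic AMP list, 11 rose, 3 fell and 18 were not called, where 28.3% of all genes tested rose and 26.1% fell. The median log2 change was 0.24 beside 0.051 over all genes tested. Ramp2, an accessory protein that binds several receptors of the class of Pth1r, rose by 4.21 log2 units (SE 0.48, adjusted p = 9.28e-05), with 4.25 TPM at the first day and 62.2 TPM at the last. Arrb1, an arrestin that uncouples and internalises such receptors, rose by 2.15 log2 units (SE 0.31). Prkar2a, another regulatory subunit of the kinase, fell by 1.85 log2 units, and Pde4d, a phosphodiesterase that degrades cyclic AMP, fell by 1.45 log2 units. Of 16 tested genes that PTH regulates in osteoblasts, 5 rose, 5 fell and 6 were not called, with a median of -0.31. Rgs2, which restrains G protein signalling, rose by 4.12 log2 units and Igf1 by 3.79. Ptgs2, the inducible cyclooxygenase, fell by 8.57 log2 units and Il6 by 3.66, with Ptgs2 at 361.5 TPM on day 2 and 1.81 TPM on day 18.

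Vdr fell in CPM, with the steps up to day 10 outside counting error. The gene is on chromosome 15 (97684856 to 97741061, minus strand), and 6 of its transcripts were quantified. Its promoter is shown because it is one of the 4 windows chosen for the genes that rose or fell, in each case the most upstream start site in the table. RefSeq gave windows of 300 bases, 250 before to 50 after a start site, for 6 of the 8 genes (10 windows, build GRCm38.p6), Cyp24a1 and Nr3c1 not being among them. Capitals mark GGGCGG or its reverse complement CCGCCC, the letters that Sp1 family factors recognise. The windows read 5′ to 3′ on the gene's strand, from Vdr (chr15:97908247-97908546, minus strand), Fkbp5 (chr17:28486100-28486399, minus strand), Ghr (chr15:3583303-3583602, minus strand) and Esr1 (chr10:4611739-4612038, plus strand).
Vdr: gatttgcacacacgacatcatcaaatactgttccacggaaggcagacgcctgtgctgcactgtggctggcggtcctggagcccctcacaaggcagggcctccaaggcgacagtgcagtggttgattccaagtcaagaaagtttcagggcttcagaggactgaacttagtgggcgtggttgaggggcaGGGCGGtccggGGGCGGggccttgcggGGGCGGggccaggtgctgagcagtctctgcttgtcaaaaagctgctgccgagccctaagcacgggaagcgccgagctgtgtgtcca
Fkbp5: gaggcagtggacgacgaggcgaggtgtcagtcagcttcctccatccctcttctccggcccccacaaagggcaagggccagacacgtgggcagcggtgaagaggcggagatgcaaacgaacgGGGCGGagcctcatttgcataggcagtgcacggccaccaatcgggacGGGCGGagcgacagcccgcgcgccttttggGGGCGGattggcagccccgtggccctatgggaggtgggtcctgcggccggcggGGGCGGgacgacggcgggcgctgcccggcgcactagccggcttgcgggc
Ghr: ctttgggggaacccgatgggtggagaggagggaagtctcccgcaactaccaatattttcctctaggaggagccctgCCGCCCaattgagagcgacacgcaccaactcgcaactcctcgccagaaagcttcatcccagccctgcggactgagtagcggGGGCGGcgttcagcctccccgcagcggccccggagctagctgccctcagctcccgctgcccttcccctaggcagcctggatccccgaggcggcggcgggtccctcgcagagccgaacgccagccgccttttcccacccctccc
Esr1: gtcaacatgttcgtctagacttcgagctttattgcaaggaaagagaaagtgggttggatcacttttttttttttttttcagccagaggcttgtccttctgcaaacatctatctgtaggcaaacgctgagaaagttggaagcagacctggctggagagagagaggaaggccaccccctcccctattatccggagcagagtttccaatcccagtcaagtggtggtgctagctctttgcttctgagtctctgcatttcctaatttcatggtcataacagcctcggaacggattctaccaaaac

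The Vdr window held 3 Sp1 motifs between positions -63 and -31 from the start site, the Fkbp5 window 4 and the Ghr window 2, and the Esr1 window none. GC content was 61.3%, 70.7%, 67.0% and 46.3%, beside a median of 52.7% over 32851 windows. Searched on both strands, GGGCGG was in 6 of the 10 member windows and in 35.7% of all windows. The nuclear receptor motif AGGTCA was in 0 of 10 and in 16.3% of all, the cyclic AMP response element TGACGTCA in 0 of 10 and 1.79% of all, and the glucocorticoid motif AGAACA in 1 of 10, a Pth1r window, and 19.0% of all. The STAT motif TTCNNNGAA was in 1 of 10, the other Esr1 window, and in 8.30% of all. Genes that rose and genes that fell both had windows with the Sp1 letters, and the counts per gene do not say which start site was used.

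The level of Vdr was 56.4 CPM at day 2, 46.1 at day 4, 38.1 at day 6, 25.4 at day 8, 21.8 at day 10, 21.3 at day 12, 19.9 at day 14, 19.0 at day 16 and 18.6 at day 18. Each library was below the one before it, with most of the fall by day 8. The steps up to day 10 lay outside counting error, the largest from day 6 to day 8 (ratio 0.667, exact interval 0.612 to 0.725), and those after day 10 did not. The line fell by 1.66 log2 units (SE 0.21, adjusted p = 0.000136, edgeR) and days 14 to 18 averaged 0.409 of days 2 to 6. The most similar patterns were those of Pdgfa (r = 0.997), a growth factor for mesenchymal cells, Tsr1 (0.997), which takes part in ribosome assembly, and Ppfibp1 (0.997), a liprin of the cell edge. By the fitted line the 4 smooth muscle and myofibroblast markers fell by a median of 3.40 log2 units and the 5 proliferation markers by a median of 2.63. Only the smooth muscle list had dropped by day 8, its sum going from 6182 to 2093 TPM. The proliferation sum stayed between 345 and 405 TPM through day 8 and dropped to 218 TPM at day 10, after most of the Vdr fall.

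Cyp24a1, on chromosome 2 (170308208 to 170322645, minus strand), is among the strongest targets of Vdr in many cells. It had 2 counts at day 2, 1 at day 16 and 0 on the other 7 days. A level of 3 counts corresponds to 0.0509 to 0.135 CPM in these libraries, so a lower level was not reliably detectable at this depth. No fold change is given, since each day was at or under that floor. The enzyme that makes active vitamin D, Cyp27b1, had 20 counts in all.

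Of 12 genes tested among the receptor, its partners and vitamin D metabolism, 3 rose, 3 fell (Vdr being 1 of them) and 6 were not called, with a median of 0.16. Rxra, the partner with which Vdr binds DNA, rose by 0.88 log2 units (SE 0.13, adjusted p = 0.000328), the opposite direction to Vdr. Ncoa1, a coactivator of nuclear receptors, rose by 1.97 log2 units, whereas Lrp2, the endocytic receptor megalin, fell by 7.29 and Med1, a Mediator subunit, by 0.69. Lrp2 stood at 7.49 TPM on day 2 and 0.0775 TPM on day 18. Of 9 tested genes known as vitamin D targets 3 rose, 3 fell and 3 were not called, with a median of -0.57. Bglap (osteocalcin) rose from 1.24 to 208 TPM and Lrp5 from 13.4 to 50.5 TPM, while Cdkn1a, an inhibitor of the cell cycle, fell from 2368 to 634 TPM and Tnfsf11, which encodes RANKL, from 2.60 to 1.13 TPM (adjusted p = 0.0240). Bglap has near-identical neighbours (Bglap2 and Bglap3), so its counts depend on how RSEM shared reads among them.

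Nr3c1, on chromosome 18 (39570199 to 39650955, minus strand), was well expressed throughout and rose over the days. Its level was 95.5 CPM at day 2, 112 at day 4, 101 at day 6, 108 at day 8, 135 at day 10, 154 at day 12, 175 at day 14, 187 at day 16 and 194 at day 18. The first 4 libraries lay between 95.5 and 112 CPM and every later one above them, with an increase at each step from day 6. The fitted change was 1.11 log2 units (SE 0.13, adjusted p = 8.81e-05, edgeR). The last library was 2.03-fold over the first. The closest patterns were those of Ccdc80 (r = 0.995), a secreted matrix protein, and of Gsta4 (0.994) and Mgst1 (0.992), glutathione transferases that clear reactive compounds.

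Fkbp5, on chromosome 17 (28536040 to 28654469, minus strand), peaked on day 6 and was lower late in the course. Its level was 7.97 CPM at day 2, 10.3 at day 4, 12.7 at day 6, 10.5 at day 8, 7.17 at day 10, 5.55 at day 12, 3.83 at day 14, 4.58 at day 16 and 4.79 at day 18. It therefore rose to day 6, with both early steps outside counting error (ratios 1.29 and 1.24), and then fell to a level 3.33-fold lower on day 14, after which neither step left counting error. The line fell by 1.49 log2 units (SE 0.36, adjusted p = 0.00544). The spline gave an adjusted p of 2.18e-05 and a smaller change from day 2 to day 18, -0.70 log2 units. Patterns like it were those of Prl2c3 (r = 0.982), a placental growth factor, Apol9a (0.976) and the tubulin Tubb2b (0.975). Prl2c3 and Apol9a belong to families of near-identical copies and their counts are uncertain for that reason.

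Of 14 genes tested among the glucocorticoid receptor, its chaperones and steroid metabolism, 6 rose, 7 fell and 1 was not called, with a median of -0.0026. Nr3c2, the mineralocorticoid receptor, rose by 4.17 log2 units (SE 0.75, adjusted p = 0.000997), with 5 counts on day 2 and 371 on day 18. Hsd11b1, which regenerates active glucocorticoid, rose by 5.79 (SE 0.60, adjusted p = 6.1e-05), with 9 counts on day 2 and 193 on day 18. The chaperones named fell: Hsp90aa1 by 1.79 log2 units (664 TPM on day 2, 215 on day 18), Stip1, which links the chaperones HSP70 and HSP90, by 1.26, and Fkbp4, the co-chaperone that competes with Fkbp5 for the receptor complex, by 0.57 (SE 0.100, adjusted p = 0.000865). Fkbp4 was more abundant than Fkbp5, with a mean of 68.0 TPM beside 3.55 TPM for Fkbp5.

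Known glucocorticoid targets went in both directions. Of 17 tested, 8 rose, 5 fell (Fkbp5 included) and 4 were not called, with a median of 0.55, or 1.00 without Fkbp5. Tsc22d3, which encodes GILZ, rose by 1.45 log2 units (SE 0.26, adjusted p = 0.00108), with 11.3 TPM on day 2 and 22.8 TPM on day 18. Fam107a rose by 7.74 log2 units (0.0191 TPM on day 2, 3.77 on day 18). It had 1 count on day 2, 0 on day 4 and 223 on day 18, so the size of its rise is uncertain. Lcn2, a lipocalin, was listed at 0 TPM on day 2 and at 7.54 TPM on day 18. Sgk1, a kinase, fell by 2.93 log2 units (118 TPM on day 2, 28.4 on day 18), and Dusp1, a phosphatase of MAP kinases, fell by 2.13 (140.0 and 33.8 TPM).

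**Figure D3:**
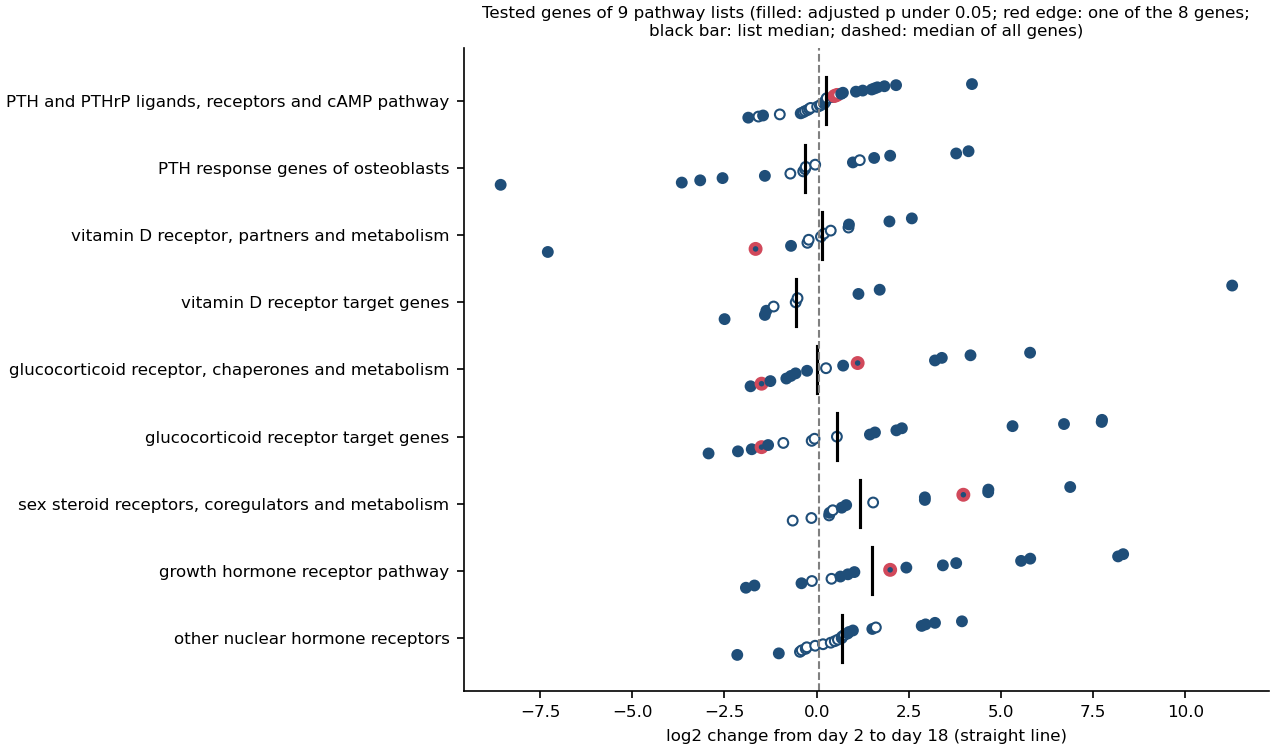
Fitted log2 change from day 2 to day 18 (horizontal axis) of the tested genes in 9 pathway lists, 1 point a gene; filled points passed an adjusted p of 0.05 in edgeR, red edges mark members of the 8 hormone genes, black bars list medians and the dashed line the median of all genes. The growth hormone list has the highest median of the 9, 1.51, and no gene of the sex steroid list is a filled point below 0.

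Esr1 had the largest fitted change of the members. On chromosome 10 the NCBIM37 annotation places it at 5340927 to 5734948 on the minus strand, whereas the RefSeq window on GRCm38.p6 above is on the plus strand, so the builds differ in the gene's orientation, and 11 of its transcripts were quantified. Its level was 1.38 CPM at day 2, 0.783 at day 4, 1.55 at day 6, 1.24 at day 8, 2.57 at day 10, 4.77 at day 12, 6.33 at day 14, 9.19 at day 16 and 15.1 at day 18. The first 4 libraries rest on 34 to 71 counts each, and the increase came at every step from day 8, each outside counting error, to 641 counts on day 18. The line rose by 3.98 log2 units (SE 0.42, adjusted p = 6.45e-05, edgeR), and days 14 to 18 averaged 8.25-fold over days 2 to 6. Leaving out single days moved the fitted change between 3.73 and 4.78 with the call kept.

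The genes most like Esr1 over the days were Tst (r = 0.991), a mitochondrial sulphur transferase, Laptm5 (0.989), a lysosomal protein of blood cells, and Lyz1 (0.988), a lysozyme whose counts cannot be fully separated from those of its near-identical neighbour Lyz2. Laptm5 rose by 7.82 log2 units and Lyz1 by 11.17. Of the 7 macrophage markers the defining ones were low early and higher late, with Emr1 (F4/80) from 0.0704 to 17.2 TPM, Csf1r from 1.38 to 14.9 TPM and Ptprc from 0.0576 to 2.23 TPM between day 2 and day 18, while Cd14 was not called. The cells had been sorted for Col3.6-driven CFP before differentiation, and the part of these markers' cells in the rise of Esr1 was not tested.

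Of 14 genes tested among sex steroid receptors, coregulators and metabolism, 9 rose (Esr1 included), none fell and 5 were not called, with a median of 1.17, or 0.80 without Esr1. Greb1, an oestrogen-responsive gene, rose by 4.65 log2 units in the fitted line (SE 0.54, adjusted p = 9.93e-05, edgeR). It stood at 0.442 TPM on day 2 and 2.94 TPM on day 18. Esr2, oestrogen receptor beta, had 183 counts in all, a mean of 0.267 TPM and no call (-0.65, SE 0.54, adjusted p = 0.334).

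Ghr had the highest TPM of the 8 genes on every day, although Nr3c1 was above it in CPM, which carry no length term, on days 2 to 8. It lies on chromosome 15 (3267760 to 3533492, minus strand). Its level was 85.1 CPM at day 2, 59.6 at day 4, 65.2 at day 6, 101 at day 8, 144 at day 10, 170 at day 12, 187 at day 14, 220 at day 16 and 241 at day 18. After an early dip by a ratio of 0.701 (0.666 to 0.737) each library was above the one before, and all steps lay outside counting error. The line rose by 1.99 log2 units (SE 0.26, adjusted p = 0.000162, edgeR), and the highest day was 4.05-fold over the lowest. The closest patterns were those of Serinc5 (r = 0.995), a multipass membrane protein, Arhgef6 (0.995), a guanine nucleotide exchange factor, and Aff2 (0.990), a nuclear RNA-binding protein.

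Most tested genes of the growth hormone pathway list rose. The list holds receptors (Ghr, Prlr and Igf1r) as well as genes downstream of Ghr. Of 16 tested, 11 rose (Ghr and Prlr included), 3 fell and 2 were not called, where 28.3% of all genes tested rose and 26.1% fell. The list's median was 1.51, or 1.02 without Ghr, beside 0.051 for all genes tested. Igf1, the main effector of growth hormone in bone and liver, rose by 3.79 log2 units (SE 0.52, adjusted p = 0.000223) and stood at 108 TPM on day 2, 472 TPM on day 8 and 1206 TPM on day 18. Of the feedback inhibitors that STAT5 induces, Socs2 rose by 2.43 log2 units (SE 0.22, adjusted p = 2.8e-05) and Cish by 1.02 (SE 0.21, adjusted p = 0.00222). Socs2 stood at 16.5 TPM on day 2 and 67.6 TPM on day 18, and Cish at 5.63 and 9.41 TPM.

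The signal transducers changed by less than 1 log2 unit. Stat5a rose by 0.64 log2 units (SE 0.21, adjusted p = 0.0238) and Stat5b by 0.85 (SE 0.17, adjusted p = 0.00159), whereas the kinase Jak2 fell by 0.41 (SE 0.100, adjusted p = 0.00546). Igf1r, the receptor of Igf1, fell by 1.92 log2 units (33.5 TPM on day 2, 10.9 on day 18). Socs3, another feedback inhibitor, had a falling line (-1.69, SE 0.38, adjusted p = 0.00357). The line was fitted to counts, and Socs3 had 356 at the first day, 648 at day 4 and 227 at the last. In TPM, which carry a length term, it stood at 5.54, 18.1 and 7.85 on those days. Prlr, the prolactin receptor and a relative of Ghr, rose by 8.31 log2 units (SE 1.23), with 0.339 TPM on day 2 and 50.1 TPM on day 18. Igfals, which stabilises Igf1 in blood, was listed at 0 TPM on day 2 and at 5.80 TPM on day 18. Gh itself had 0 counts, so no transcript of the ligand was seen. All 5 adipocyte markers also rose, among them Fabp4 (from 1.92 TPM on day 2 to 197.7 on day 18) and Adipoq (0.204 and 92.0 TPM), and their part in the rise of Ghr was not tested.

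**Figure D4:**
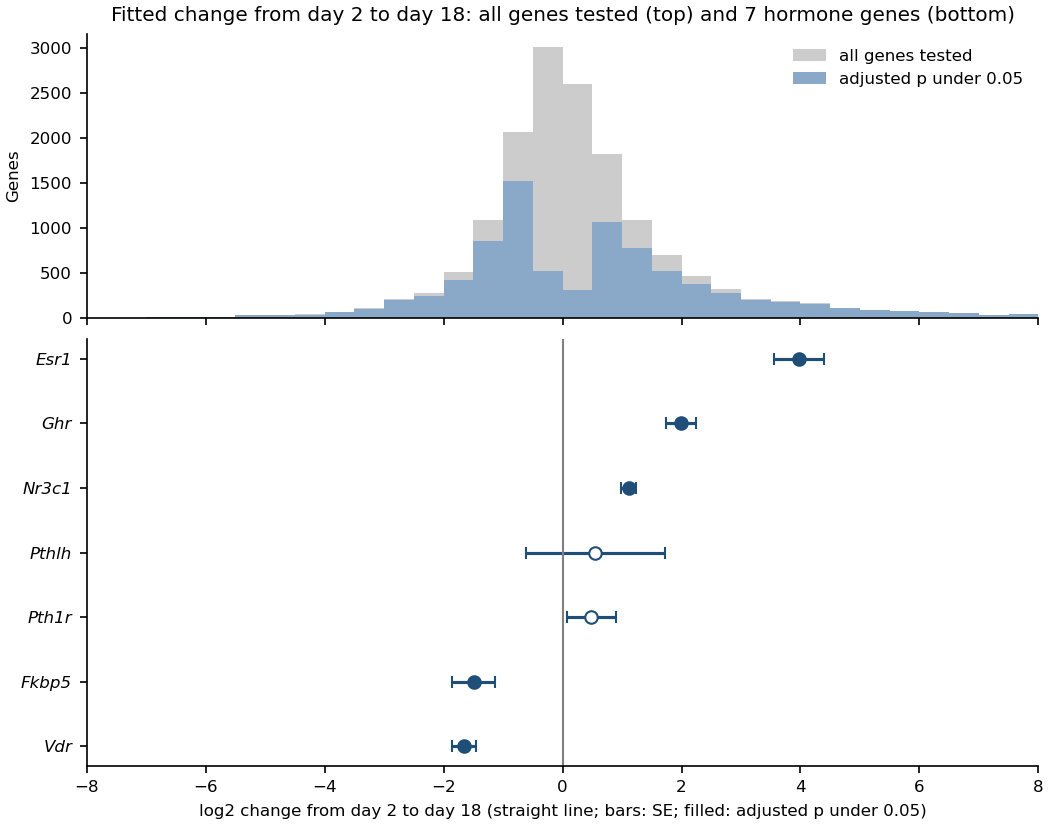
Fitted log2 change from day 2 to day 18 of a straight line; top, histogram of the 15659 genes tested (genes beyond the ends of the axis are not drawn), with those past an adjusted p of 0.05 in blue; bottom, the 7 hormone genes tested with SE bars, filled where the adjusted p was under 0.05. Esr1 lies at 3.98 and Vdr at -1.66, while the bar of Pthlh crosses 0.

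Compared per length, the order of the 8 genes by mean TPM over the 9 days was Ghr (82.6 ± 41.9, SD over days), Nr3c1 (41.9 ± 13.4), Vdr (20.6 ± 9.19), Pth1r (6.84 ± 2.32), Fkbp5 (3.55 ± 1.45), Esr1 (2.41 ± 2.05), Pthlh (0.528 ± 0.391) and Cyp24a1 (0.00362). The SD includes the change over time. Ghr was above Nr3c1 on all 9 days, and Vdr above Pth1r likewise. Nr3c1 was above Vdr on 8 of 9 days, the exception being day 2, when Vdr stood at 40.5 TPM and Nr3c1 at 26.4 TPM. Neighbours lower in the order traded places, Pth1r being above Fkbp5 on 7 of 9 days and Fkbp5 above Esr1 on 5 of 9, and the mean log2 ratio of Fkbp5 to Esr1 (0.98) was smaller than its SD over days (1.90). At a threshold of 1 TPM, 5 of the 8 genes were expressed on all 9 days, Esr1 on 6, Pthlh on 2 and Cyp24a1 on none.

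TPM divides a count by an effective length that RSEM estimates from the mix of transcripts. For Esr1, Vdr and Nr3c1 that length was unstable between lanes of the same library. The effective length of Esr1 ranged from 1245 to 6060 bases over the 27 profiles and differed by up to 3500 bases between lanes of 1 day, and that of Vdr ranged from 1221 to 3528 bases, with a gap of up to 1727. For Nr3c1 the range was 4453 to 5937 bases, with a gap of up to 1188. The gap was at most 214 bases for Ghr and 97.6 for Fkbp5, which also have several transcripts of unequal length. Pth1r varied from 1940 to 1973 bases, and Pthlh and Cyp24a1, with 1 transcript each, not at all. The estimated counts of all 8 genes were exact whole numbers, with no tolerance, in every profile as deposited.

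This had visible effects on single steps. From day 14 to day 16 Esr1 went from 6.33 to 9.19 CPM but from 3.84 to 3.22 TPM, as its mean effective length went from 2658 to 4597 bases. Over the same step Vdr went from 19.9 to 19.0 CPM but from 15.0 to 18.6 TPM, with a mean length of 2337 and then 1737 bases. Within a day the lanes' coefficient of variation in TPM reached 44.9% for Esr1 and 39.3% for Vdr but 6.68% for Ghr. The CPM above carry no such term, and the directions of Esr1 and Vdr between day 2 and day 18 were the same in TPM (0.788 to 6.74 and 40.5 to 12.9).

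**Figure D5:**
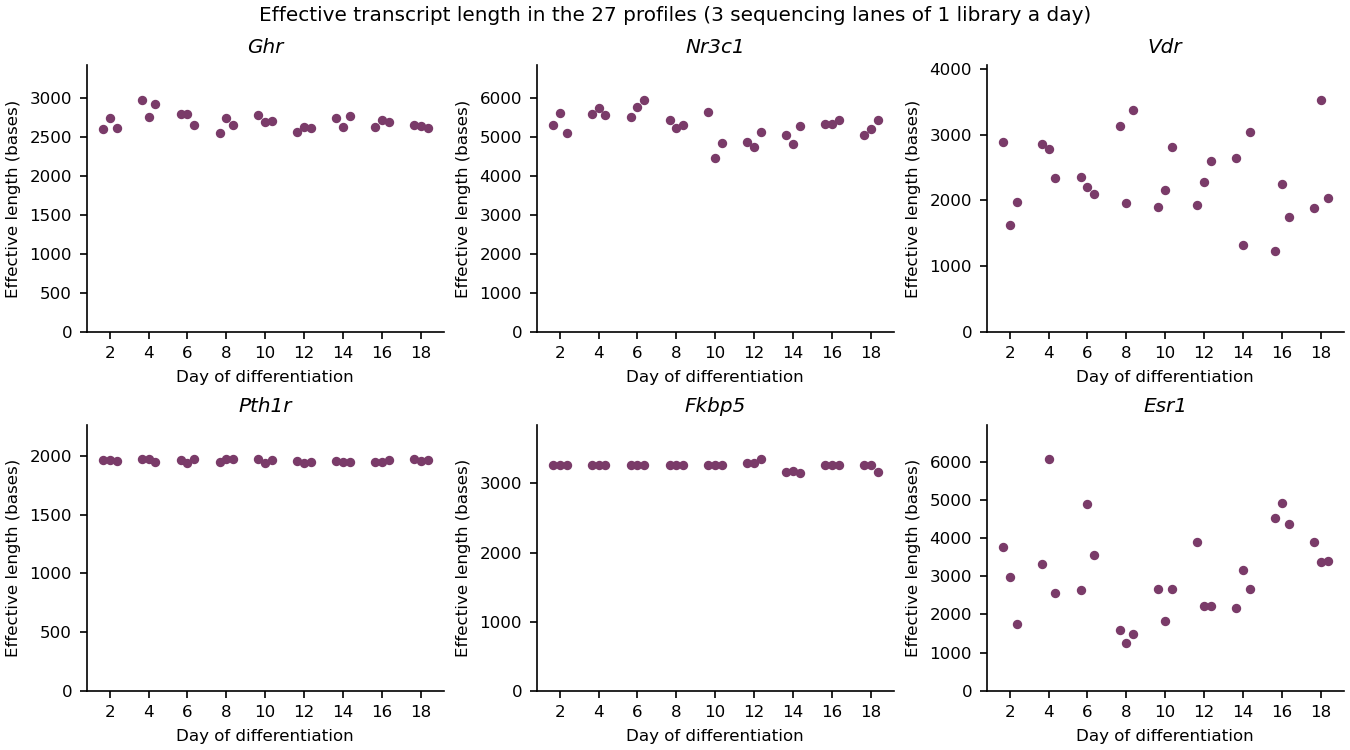
Effective transcript length in bases (vertical axes, each from 0) of 6 hormone genes in the 27 profiles, 3 lanes of 1 library a day side by side. Points of a day lie apart by up to 3500 bases for Esr1 and 1727 for Vdr, and by at most 33.0 bases for Pth1r.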

How the data were processed

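RNA sequencing profiles of mouse calvarial osteoblast cultures were used. Human cells and association results of the same paper are not analysed here. Per the submitters' processing notes, reads were aligned with Bowtie 0.12.9 to NCBIM37 and quantified with RSEM 1.2.8. The deposited estimated counts are RSEM's expected counts as made by the authors, without normalization, and share reads that match several transcripts. The TPM values deposited by the authors divide these counts by effective length and sum to a fixed total per profile, and the deposited FPKM, also from RSEM, scale them by length and aligned fragments. Complementary DNA was amplified before library construction, without molecular identifiers.

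The 3 profiles of a day were summed and rounded to whole counts, giving 9 libraries. A straight line and a natural spline with 3 degrees of freedom in day were fitted in edgeR 4.0.16 (R 4.3.3) with upper-quartile factors, filterByExpr at a minimum count of 10 and the quasi-likelihood test, and p-values were adjusted by Benjamini-Hochberg over 15659 genes. SEs were taken from the fitted change and its F statistic. TPM were scaled to the 75th percentile of each profile, as the mean over a day's 3 profiles. The fit was tested on simulated counts. Wilson and exact conditional intervals were computed in Python 3.11.15 with scipy 1.17.1. Symbols and positions came from the GENCODE annotation of NCBIM37 (37205 of 37991 identifiers matched), and promoter windows from RefSeq.

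The 8 genes and the 17 gene lists were chosen with earlier results of these data known. Of 210 list genes 209 matched. The genes named are the 8, for each with at least 1 TPM on 5 days the 3 most similar genes with a mean of at least 5 TPM (Pearson r on log2 CPM with a pseudocount of 0.5), up to 2 rises and 2 falls per list with a mean of at least 1 TPM, and fixed pathway partners, 1 of which is not reported here. Macrophage, osteoclast and osteoblast markers given with values beside a result, and genes named for 0 counts, are outside that rule, after their values were seen. The alternatives tried were DESeq2 1.42.0, TMM factors, different filters on low counts, all 27 profiles with or without a replicate block, each day and each replicate left out, early against late days, other splines, and TPM or FPKM as deposited.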

Additional observations from a re-analysis of the deposited data

How the results depend on the processing

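The replicate numbers coincide with sequencing lanes of 1 library. Deviations from the day's mean correlated by 0.00568 between profiles of the same number (range -0.0666 to 0.0580) and by -0.00284 between different numbers, so no pairing by number was seen. With the 27 profiles as separate samples 10754 genes followed day, and 10649 with the replicate block, against 8510 in the summed fit, with 5 of the hormone genes called in each. Over 411 recomputed values 403 were classed as unchanged, and 7 mean levels moved when FPKM replaced TPM. Unchanged meant the same direction and call for a test, and a mean level within its spread. For a count of genes it meant only a count within a fixed fold of the reported one. The number of genes that changed by the spline, for instance, ranged from 7390 to 12357 beside 9251. In 1 case a call was gained: without day 2 the Pth1r line gave 1.30 (adjusted p = 0.00983, range over its alternatives 0.00983 to 0.712). Leaving out single days moved the number of genes that follow day between 7187 and 8447, and leaving out a replicate between 8194 and 8245. Pthlh did not pass the filter with a minimum count of 50 or in the fits of 27 profiles and has no value there, and Cyp24a1 was tested only when every gene with at least 1 count was kept (adjusted p = 0.444, edgeR), where its fitted change depends on the prior count. Depth limits Pthlh and Cyp24a1 most, followed by Esr1 before day 10.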

Other observations

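Of 23 tested genes in a list of other nuclear hormone receptors, 10 rose, 2 fell and 11 were not called by the line in day, with a median log2 change of 0.68. Pparg, the receptor that drives adipocyte differentiation, rose by 3.94 log2 units in the fitted line (SE 0.76, adjusted p = 0.00155, edgeR). It stood at 5.15 TPM on the first day and at 35.1 TPM on the last. Nr1h3, an oxysterol receptor abundant in macrophages, rose by 3.21 log2 units (SE 0.40, adjusted p = 0.00013), with 0.684 TPM on the first day and 6.14 TPM on the last. Nr2f2, an orphan receptor of mesenchymal cells, fell by 1.03 log2 units (SE 0.26, adjusted p = 0.00746), with 20.9 TPM on the first day and 14.9 TPM on the last. Nr5a1 and Nr0b1, receptors of steroid-producing glands, had 0 counts.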
